A study of Mus musculus with 230 samples.

Results

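The genes described here encode the dopamine receptors of the mouse, Drd1, Drd2, Drd3, Drd4 and Drd5, which were taken by symbol from a table of 43346 Ensembl gene identifiers. All 5 had a row, and all 5 had reads in at least some libraries of each brain region. They were followed through 230 RNA sequencing libraries of male C57BL/6J mice, an inbred strain, with no engineered allele named in the labels. The 6 regions were 2 of the striatum, namely caudate putamen (CPu) and nucleus accumbens (NAc), then prefrontal cortex (PFC), basolateral amygdala (BLA), ventral hippocampus (vHipp) and, in the midbrain, ventral tegmental area (VTA). Every mouse had self-administered either saline or cocaine. Withdrawal lasted 24 h in a saline group (S24) and a cocaine group (C24), which had no injection before tissue was taken, and 30 d in the other 4 groups, whose tissue was taken 1 h after an intraperitoneal injection of saline or cocaine. The groups at 30 d carry a letter for the self-administered solution and then a letter for the injection: SS for saline and saline, SC for saline and cocaine, CS for cocaine and saline, and CC for cocaine and cocaine. In that order (S24, C24, SS, SC, CS, CC) the groups held 7, 6, 7, 7, 5 and 6 libraries in the BLA, 8, 8, 7, 6, 6 and 7 in the CPu, 8, 8, 6, 5, 5 and 7 in the NAc, 7, 8, 7, 7, 5 and 7 in the PFC, 7, 8, 6, 7, 6 and 5 in the vHipp, and 6, 6, 6, 5, 3 and 5 in the VTA. Title numbers were read as mice, which gives 45 of them, each under a single condition.

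Dopamine receptors are G protein-coupled receptors of 2 families. D1-like receptors (Drd1 and Drd5) couple to stimulatory G proteins and raise cyclic AMP, whereas D2-like receptors (Drd2, Drd3 and Drd4) couple to inhibitory G proteins and lower it. In the striatum the projection neurons of the direct pathway carry Drd1 and those of the indirect pathway carry Drd2. Drd2 is also the autoreceptor by which midbrain dopamine neurons sense their own transmitter. Cocaine blocks the dopamine transporter, so that more dopamine reaches all of these receptors.

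Levels are given as CPM, read counts scaled to library size with TMM factors over all libraries, as mean ± SD over the libraries of a region or group. Library totals lay between 11866570 and 42135683 reads. Marker genes fitted the regions: summed over 7 striatal projection neuron genes, CPM was 9130 in the CPu and 3781 in the NAc against 167 to 855 in the other regions, and 11 dopamine neuron genes summed to 4999 CPM in the VTA. In 25 libraries (8 of the CPu, 6 of the PFC, 5 of the NAc, 3 of the vHipp, 2 of the VTA and 1 of the BLA) the mean log2 level of striatal, dopamine neuron or glutamatergic markers lay over 3.5 scaled median absolute deviations from the region's median. They were kept, and results that moved without them are named. The limit scales with a region's own spread, and the BLA library with the highest striatal sum was not among the 25. In such tissue samples, fewer cells of a type and less RNA per cell cannot be told apart.

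Stretches before start sites of the receptor genes are shown because the genes differ so widely between regions. They are the RefSeq promoter windows (GRCm38.p6, 250 bases before a start site), printed 5′ to 3′ on the gene's strand up to the first base that GENCODE M21 places in an exon of the gene. The stretch of Drd3 lies inside the annotated gene, downstream of its first base at 43754026, and the other printed stretches lie outside their genes. Capitals mark a GC box, GGGCGG on either strand.
Drd1, chr13:54055706-54055908, minus strand: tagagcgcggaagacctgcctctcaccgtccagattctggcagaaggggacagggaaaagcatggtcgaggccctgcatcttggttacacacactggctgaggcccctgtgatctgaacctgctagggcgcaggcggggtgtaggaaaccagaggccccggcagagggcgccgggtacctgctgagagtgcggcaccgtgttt
Drd2, chr9:49340153-49340402, plus strand: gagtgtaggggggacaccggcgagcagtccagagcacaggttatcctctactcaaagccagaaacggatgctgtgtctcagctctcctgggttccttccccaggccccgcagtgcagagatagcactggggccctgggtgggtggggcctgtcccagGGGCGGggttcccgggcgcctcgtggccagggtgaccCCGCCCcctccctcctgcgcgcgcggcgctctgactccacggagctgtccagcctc
Drd3, chr16:43761971-43762207, plus strand: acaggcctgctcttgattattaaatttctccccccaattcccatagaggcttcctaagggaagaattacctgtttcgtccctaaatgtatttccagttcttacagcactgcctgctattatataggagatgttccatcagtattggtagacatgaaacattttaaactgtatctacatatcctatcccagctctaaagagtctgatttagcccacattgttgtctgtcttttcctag
Drd5, chr5:38319259-38319366, plus strand: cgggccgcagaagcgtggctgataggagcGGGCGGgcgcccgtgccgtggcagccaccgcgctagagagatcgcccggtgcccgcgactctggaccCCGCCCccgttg
Over the whole windows of 250 bases, GC content was 64.0% for Drd1, 68.8% for Drd2, 39.2% for Drd3, 56.8% for Drd4 and 71.2% for Drd5, against a median of 52.4% over 32851 mouse promoters. The lowest GC content of the 5 was that of Drd3, whose window lies inside the annotated gene. The GC box was matched 2 times in the window of Drd2, 3 times in that of Drd4, where matches overlap, 2 times in that of Drd5 and not in those printed for Drd1 and Drd3, and it occurs in 32.7% of all promoters. A second RefSeq start of Drd1, inside the annotated gene, had 1 match. TATAAA (12.4% of promoters) and TGACG (17.8%), searched on both strands, were found in none of the windows of the 5 genes. A match is a description of the letters only.

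Drd1 (ENSMUSG00000021478, mm10 chromosome 13, 54051183 to 54055705, minus strand, with 3628 exonic bases) encodes the D1 receptor, the main stimulatory dopamine receptor of the striatum. It was highest in the CPu, at 419 ± 31.7 CPM (n = 42), with libraries from 324 to 473 CPM and a median of 420. The NAc followed at 258 ± 38.9 CPM (n = 39, lowest 158, median 266, highest 324). The lowest CPu library lay just under the highest NAc library, and Drd1 was higher in the CPu in 38 of the 38 mice with both regions. The log2 difference was 0.71 (SE 0.096, limma adjusted p = 2.77e-11).

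Outside the striatum Drd1 was lower by a wide margin and more variable. The BLA had 51.7 ± 30.6 CPM (n = 38, lowest 13.8, median 45.5, highest 124) and the PFC 29.9 ± 12.6 CPM (n = 41, lowest 18.8, median 26.1, highest 86.2). These ranges overlapped, Drd1 was higher in the BLA in 26 of 36 mice, and the log2 difference of 0.62 was called (SE 0.10, limma adjusted p = 2.78e-08). The vHipp had 3.32 ± 2.53 CPM (n = 39, lowest 0.884, median 2.502, highest 10.8). In the VTA the mean of 2.95 ± 6.498 CPM (n = 31, lowest 1.00, median 1.61) rested on a single library at 37.8 CPM, the next being at 4.04. Without the 2 VTA libraries that stood apart in their markers the mean was 1.77 ± 0.649 CPM. Drd1 in vHipp and VTA did not differ by the test (log2 difference 0.46, SE 0.25, limma adjusted p = 0.0775), although without the libraries that stood apart it did (0.62, adjusted p = 0.0132; 0.0132 to 0.243 over the alternatives run). The order over all conditions was therefore CPu, NAc, BLA, PFC and then vHipp and VTA. The step from BLA to PFC was small at 24 h (29.1 ± 12.9 and 24.4 ± 6.02 CPM) and larger at 30 d (63.5 ± 30.7 and 33.1 ± 14.3).

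Drd5 (ENSMUSG00000039358, chromosome 5, 38319367 to 38322518, plus strand, a single exon of 3152 bases) encodes the other D1-like receptor and had a different order. It was highest in the vHipp at 5.29 ± 2.06 CPM (n = 39, lowest 2.003, median 5.41, highest 10.4). The PFC had 2.74 ± 0.658 CPM, the CPu 2.35 ± 0.394 and the NAc 2.20 ± 0.416. The vHipp exceeded the PFC in 29 of 35 mice (log2 difference 0.86, SE 0.091, limma adjusted p = 9.47e-17). The PFC exceeded the NAc (0.30, limma adjusted p = 0.00637), but neither could be ordered against the CPu: PFC and CPu differed by 0.20 (SE 0.099, limma adjusted p = 0.0590; 0.28 and 0.0149 without the libraries that stood apart, -0.025 and 0.946 in the SS libraries alone), and CPu and NAc by 0.10 (SE 0.10, adjusted p = 0.430). The BLA had 1.40 ± 0.635 CPM and the VTA 1.07 ± 0.468, and this last step was called (0.38, SE 0.15, limma adjusted p = 0.0148; higher in the BLA in 15 of 24 mice). An antisense gene, Gm26560, overlaps 1531 bases of the Drd5 exon, and 47.8% of the 50-base windows of Drd5 transcripts also occur in it. The strand setting of the counting is not given in the sources used here, so reads there cannot be told apart. Reads assigned to Gm26560 averaged 0.0448 to 0.225 CPM by region, most in the vHipp as for Drd5.

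Drd2 (ENSMUSG00000032259, chromosome 9, 49340627 to 49408177, plus strand, 2547 exonic bases in 8 parts) encodes the D2 receptor. It had 229 ± 23.4 CPM in the CPu (lowest 145.3, median 228, highest 278) and 114 ± 20.7 in the NAc (lowest 72.7, median 117, highest 153). It was higher in the CPu in 38 of 38 mice (log2 difference 1.0097, SE 0.14, limma adjusted p = 1.91e-11). Unlike Drd1, it was high in the VTA, at 83.1 ± 23.7 CPM (lowest 44.1, median 81.6, highest 149). NAc and VTA libraries overlapped widely, and the NAc was higher in 19 of 25 mice (0.50, SE 0.15, limma adjusted p = 0.00147); in the SS libraries alone the difference was 0.29 with an adjusted p of 0.468. The BLA followed at 30.4 ± 26.3 CPM (lowest 2.32, median 24.3, highest 112), an almost complete separation within mice, since the VTA was higher in 23 of 24. The PFC had 7.84 ± 9.62 CPM (lowest 1.37, median 3.46, highest 50.5), or 4.598 ± 3.59 without its 6 libraries that stood apart, and the vHipp 1.87 ± 1.52 (lowest 0.299, median 1.75, highest 9.13). The SD exceeded the mean in the PFC, which makes Drd2 there the most variable level of a region apart from Drd1 in the VTA and the sparse Drd3 and Drd4 in the vHipp.

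Drd3 (ENSMUSG00000022705, chromosome 16, 43754026 to 43822932, plus strand, 1712 exonic bases; an intronic miRNA gene, Gm25996, lies within it) encodes a D2-like receptor known for the ventral striatum. It was the only receptor gene of the 5 with its highest level in the NAc, at 8.35 ± 2.24 CPM (lowest 1.75, median 8.65, highest 14.5). The CPu had 1.98 ± 1.09 CPM (lowest 0.338, median 1.79, highest 7.31). The NAc was higher in 37 of 38 mice (log2 difference 2.14, SE 0.11, limma adjusted p = 8.28e-46), the reverse of the order of Drd1 and Drd2 in the same mice. The BLA had 0.678 ± 0.301 CPM, the VTA 0.310 ± 0.151 and the PFC 0.155 ± 0.187, with 11 of 41 PFC libraries at 0. Each of these steps was called, but that from VTA to PFC (1.51, limma adjusted p = 4.65e-06; higher in the VTA in 20 of 29 mice) fell to 0.07 in the SS libraries alone. In the vHipp, 23 of 39 libraries had no read of Drd3 and all 39 together held 18. At 95% confidence a count of 0 allows up to 3 expected reads, worth 0.103 to 0.183 CPM in a vHipp library.

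Drd4 (ENSMUSG00000025496, chromosome 7, 141292006 to 141296464, plus strand, 3381 exonic bases) encodes the D2-like receptor known mainly from the cortex and retina. It was near the limit of detection everywhere and passed the filter on low counts in no region. Mean levels were 0.149 CPM in the PFC, 0.130 in the CPu, 0.103 in the NAc, 0.0908 in the BLA, 0.0896 in the VTA and 0.0427 in the vHipp, with a median of 3 reads a library in the PFC and 0 in the vHipp. A fit without the filter, added after the values were seen, called 5 of the 15 differences between regions, each with the vHipp lower (PFC against vHipp 1.32 on the log2 scale, limma adjusted p = 4.88e-07). It called 49.7% of all tests over the 15 pairs of regions. The other 5 regions were not ordered by it.

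Across the 15 pairs of regions, 57 of 60 tests on Drd1, Drd2, Drd3 and Drd5 were called (limma, adjusted p under 0.05): 15 of 15 for Drd2 and Drd3, 14 for Drd1 and 13 for Drd5. Differences between regions were common in this table, with 73.5% of tests called over all genes, so the count itself sets the receptors little apart. The background was 58.5% of genes between CPu and NAc, 65.5% between BLA and NAc, 64.1% between BLA and PFC, 63.8% between BLA and vHipp and 63.4% between PFC and vHipp. It was 76.6% for CPu against BLA and 76.6% for CPu against PFC, 79.2% for CPu against vHipp, 73.6% for NAc against PFC and 75.4% for NAc against vHipp. Against the VTA it was 83.8% (CPu), 82.3% (NAc), 79.8% (BLA), 79.7% (PFC) and 79.5% (vHipp).

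**Figure D1:**
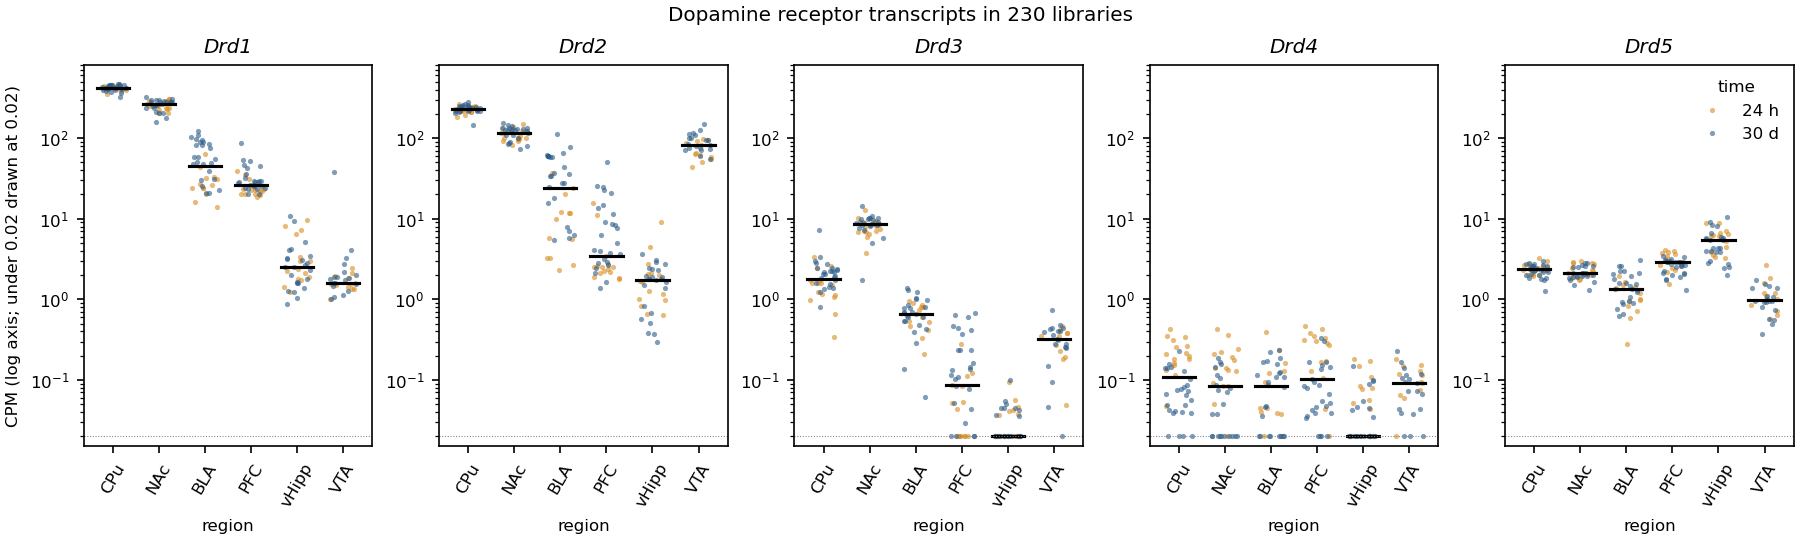
Level of each receptor gene in CPM (log axis) by region, 1 point per library, coloured by time (24 h or 30 d), with black bars at the region medians; values under 0.02 CPM are drawn at 0.02. Drd1 and Drd2 are highest in the CPu, Drd3 in the NAc and Drd5 in the vHipp, while Drd2 alone stays high in the VTA.

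To compare genes with each other, CPM was divided by exonic length, and each gene's share of the summed CPM per kilobase of the 5 genes was taken per library. In the CPu Drd1 reached 115.5 and Drd2 90.1 CPM per kilobase, and Drd1 held 55.7 ± 1.79% and Drd2 43.3 ± 1.98% of the sum. In the NAc Drd1 held 58.5 ± 2.53%, Drd2 36.8 ± 2.60% and Drd3 4.08 ± 1.22%, so that Drd2 had a smaller and Drd3 a larger share than in the CPu (0.576% for Drd3). In the BLA the shares were 57.9% for Drd1 and 37.7% for Drd2. The PFC was dominated by Drd1 (70.5 ± 7.75%), with Drd2 at 19.7% and Drd5 at 8.73%. In the vHipp Drd5 held the largest share, 51.6 ± 19.3%, with 26.1% for Drd1 and 21.6% for Drd2, and libraries ranged from 20.6 to 82.0% Drd5. In the VTA Drd2 made up 96.0 ± 3.39%. D1-like genes together thus held 56.1% in the CPu, 59.1% in the NAc, 59.97% in the BLA, 79.2% in the PFC, 77.7% in the vHipp and 3.31% in the VTA. The part of the Drd5 exon that overlaps Gm26560 counts in its length. Shares of Drd5 and of the D1-like genes may therefore be off by reads lost or gained there. All shares are of RNA and say nothing of receptor protein, which dopamine neurons and their targets carry on axons away from the cell body.

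**Figure D2:**
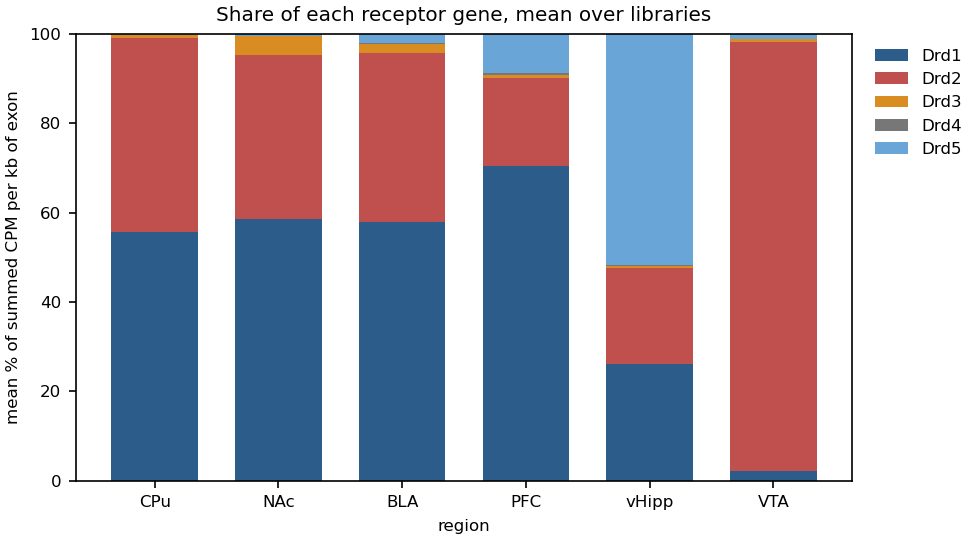
Mean share (%) of each receptor gene in the summed CPM per kilobase of exon of the 5 genes, by region. The 2 striatal regions and the BLA are mostly Drd1 and Drd2, Drd5 is the largest share in the vHipp (51.6%) and Drd2 nearly the whole of the VTA (96.0%).

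The balance of Drd1 and Drd2 within a striatal library was described without a test. The log2 ratio of their CPM was 0.87 ± 0.11 in the CPu (0.65 to 1.16) and 1.18 ± 0.16 in the NAc (0.81 to 1.52). Group means ran from 0.83 (SC) to 0.88 (C24) in the CPu and from 1.07 (SC) to 1.25 (C24) in the NAc. The ranges of the 6 conditions overlapped in both regions.

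The groups allow these genes to be compared by cocaine history, by an injection at 30 d, and by both. In the CPu, mean Drd1 was 427 ± 14.7 CPM in S24 (n = 8, lowest 409, median 422, highest 449) and 400 ± 25.8 in C24 (n = 8, lowest 349, median 405, highest 426). At 30 d it was 438 ± 30.1 in SS (n = 7), 404 ± 16.7 in SC (n = 6), 420 ± 52.5 in CS (n = 6) and 425 ± 33.5 in CC (n = 7). The cocaine group at 24 h and the SC group lay a little lower than their saline controls, with overlapping libraries. The log2 fold change was -0.09 for C24 against S24 (95% interval -0.21 to 0.02, edgeR adjusted p = 0.888) and -0.11 for SC against SS (-0.24 to 0.01, adjusted p = 1.00). Drd2 in the CPu was 233 ± 20.9 CPM in S24, 217 ± 17.5 in C24, 238 ± 20.6 in SS, 227 ± 20.4 in SC, 231 ± 43.1 in CS and 232 ± 15.7 in CC. In the NAc Drd1 had means between 249 CPM (C24 and CC) and 266 CPM (S24), and Drd2 between 104.7 CPM (C24) and 124.5 CPM (SC). In the CPu the 6 group means had the same order for both genes, from SS, S24, CC and CS down to SC and C24, and in the NAc the order differed between the genes. C24 lay below S24 for both genes in both regions. No planned contrast among them was called.

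The other main sites were no more ordered by condition. Drd2 in the VTA was 74.6 ± 20.2 CPM in S24, 67.6 ± 17.8 in C24, 96.3 ± 23.0 in SS, 80.9 ± 19.2 in SC, 82.6 ± 14.2 in CS (n = 3) and 98.7 ± 33.5 in CC. Drd3 in the NAc was 8.14 ± 2.69 CPM in S24, 7.68 ± 1.20 in C24, 8.94 ± 2.06 in SS, 8.98 ± 0.747 in SC, 9.19 ± 4.63 in CS and 7.80 ± 1.06 in CC. Drd5 in the vHipp was 5.96 ± 1.95 CPM in S24, 5.48 ± 1.70 in C24, 4.88 ± 2.90 in SS, 5.56 ± 2.03 in SC, 5.45 ± 2.29 in CS and 3.98 ± 1.74 in CC. The libraries of the conditions overlapped in each case, as the plot of levels by condition shows.

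**Figure D3:**
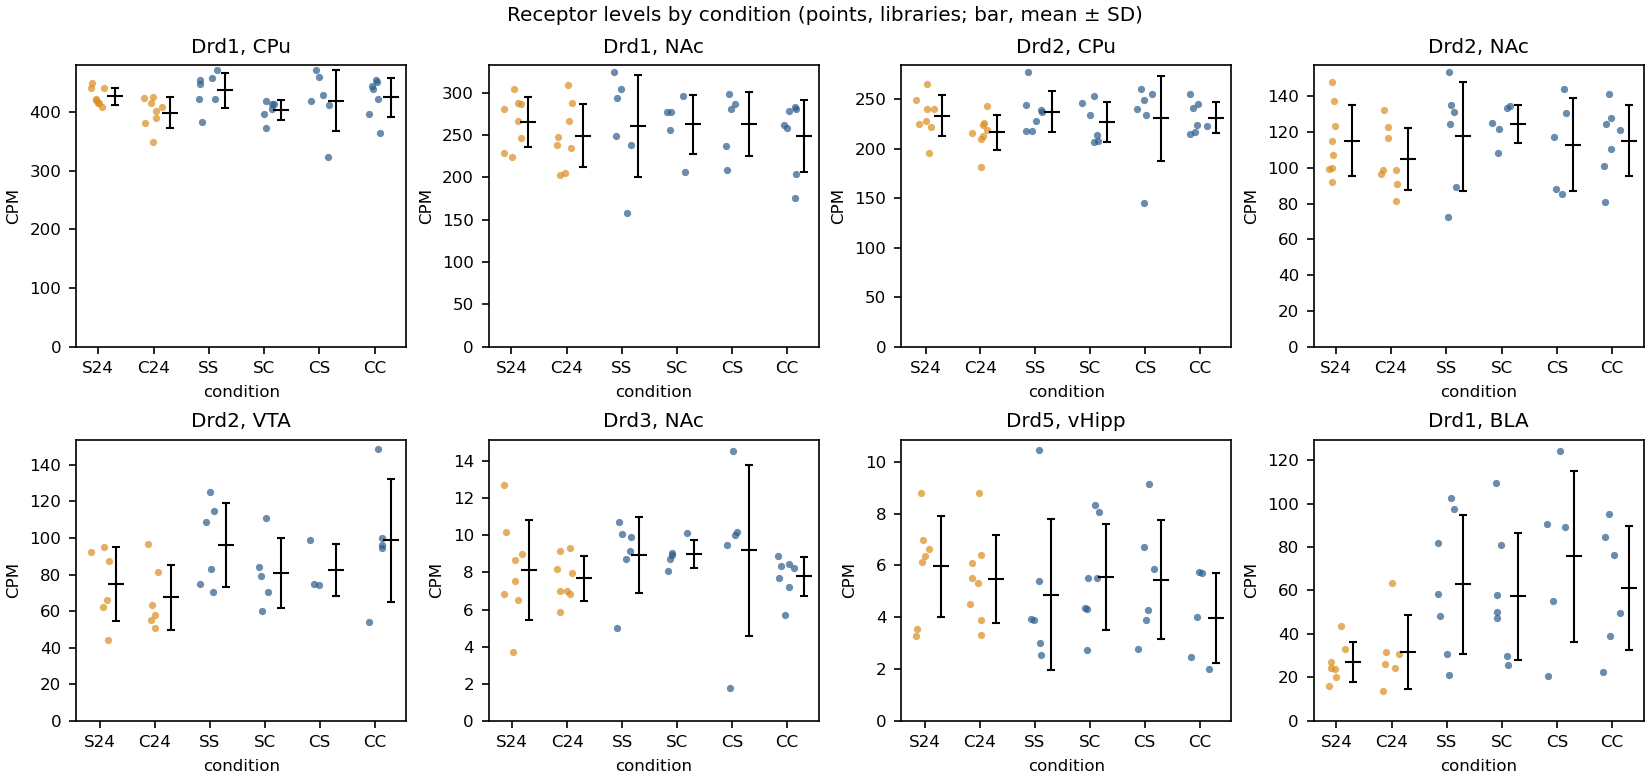
Level (CPM, axes from 0) of the receptor genes at their main sites and of Drd1 in the BLA, by condition, 1 point per library with mean ± SD beside it; 24 h groups are orange and 30 d groups blue. Groups of the same time overlap throughout, and in the BLA the S24 and C24 libraries lie low, between 13.8 and 63.5 CPM.

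Each region was tested for C24 against S24, for each of CS, SC and CC against SS, and for CC against CS. A sixth contrast, the interaction, set the effect of the injection in mice with a cocaine history (CC minus CS) against that in mice with a saline history (SC minus SS). None of the 138 tests on Drd1, Drd2, Drd3 and Drd5 was called by edgeR, and 2 had an unadjusted p under 0.05; limma called 0, with 0 under that p, and DESeq2 called 0, with 2. Over all genes edgeR called 6 of 610104 tests, or 0.000983%, so that few calls were made of any gene. How tightly the data bound a change differed by region. For Drd1 and Drd2 in the CPu all 6 estimates lay within -0.11 to 0.14 log2, and their 95% intervals within -0.26 to 0.31. In the NAc the intervals ran from -0.47 to 0.32 for Drd1, from -0.49 to 0.41 for Drd2 and from -0.99 to 0.58 for Drd3. For Drd2 in the VTA they ran from -0.79 to 1.26, and for Drd5 in the vHipp from -1.57 to 0.82. They were wider still for Drd2 in the BLA (-2.45 to 1.65) and in the PFC for Drd2 (-3.31 to 2.61) and Drd3 (-3.56 to 3.41), where changes of several fold would not be detectable. Width also differed by gene, with -1.26 to 1.13 for Drd3 in the CPu, -0.49 to 0.60 for Drd5 in the PFC and -4.57 to 3.58 for Drd1 in the VTA.

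**Figure D4:**
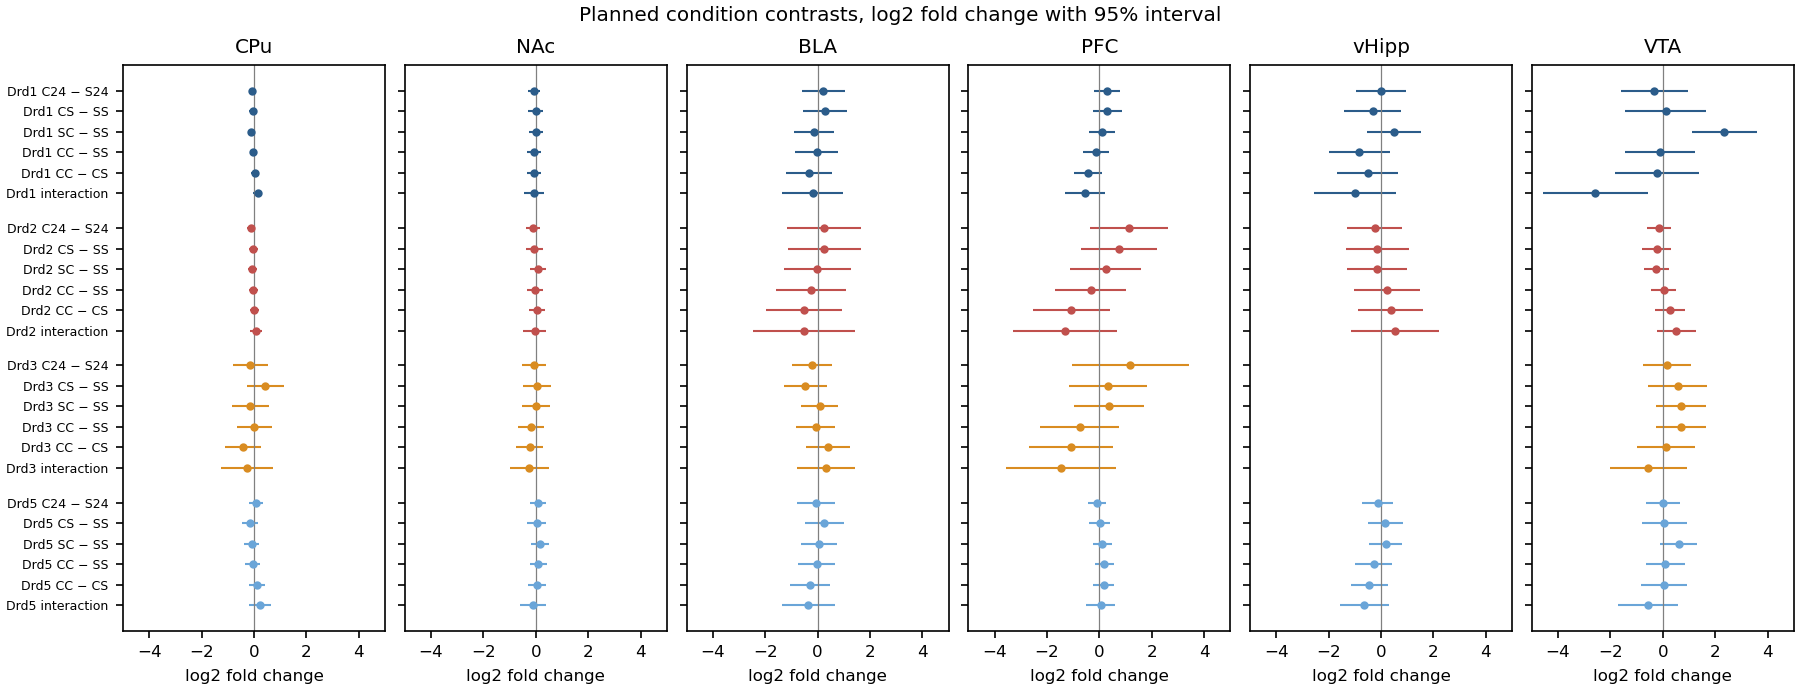
Log2 fold change (points) with 95% interval (lines) of Drd1, Drd2, Drd3 and Drd5 in the 6 condition contrasts of each region, from edgeR; Drd3 was not tested in the vHipp. Intervals are narrow for Drd1 and Drd2 in CPu and NAc and wide for Drd2 in BLA and PFC, Drd3 in the PFC and Drd1 in the VTA. Those of Drd1 in the VTA for SC against SS and the interaction lie off 0.

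The 2 tests under an unadjusted p of 0.05 were both of Drd1 in the VTA. SC against SS gave a log2 fold change of 2.34 (SE 0.60, edgeR adjusted p = 0.794; 0.135 with DESeq2) and the interaction -2.57 (SE 0.97, edgeR adjusted p = 0.996). The 5 SC libraries had 37.8, 4.04, 1.91, 1.79 and 1.02 CPM, against 1.53 to 2.17 in the 6 SS libraries. A single library is high, and of the other 4, 1 lies above the SS range, 2 within it and 1 below it. In that library the striatal markers summed to 956 CPM, the highest sum of the 31 VTA libraries, of which the others reached 567.9. Scn4b, which the VTA expresses at 272 CPM, accounts for most of that sum in a usual VTA library. Without this library the log2 fold change was 0.29 (edgeR adjusted p = 0.941) and the interaction -0.51 (adjusted p = 0.996); over all alternatives the adjusted p of the first lay between 0.135 and 0.951. Gm20594 was detected at over 1 CPM in 21 of the 230 libraries, mostly of SC groups. In the VTA these were 3 of the 5 SC libraries, the high one among them. A fit without them, which drops most of the tested group, gave -0.37 for SC against SS and 0.14 for the interaction.

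For Drd4, the fit without a filter called 0 of 36 tests, with 3 at an unadjusted p under 0.05, and 0.000459% of tests over all genes. All 3 involved the CS group of the VTA, whose 3 libraries had 0, 0 and 1 read: CS against SS was -2.64 (edgeR adjusted p = 0.969), CC against CS 2.18 (adjusted p = 1.00) and the interaction 2.73 (adjusted p = 1.00). A fitted value against so few reads depends on the prior count. Averaged over the 6 regions with the mouse as a block, none of 24 tests on the other genes was called by limma and none had a p under 0.05. Estimates ran from -0.38 to 0.18 log2 and the lowest adjusted p was 0.798, with 0.182% of tests called over all genes. No F test of a difference between the regional effects was called either (lowest p 0.168, background 0.0159%).

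A difference that the design did not plan was seen between times. The mean of S24 and C24 was set against that of SS, SC, CS and CC in each region, after the values had been seen. The length of withdrawal, the age of the mice and the injection 1 h before collection cannot be told apart in it. The labels do not say whether tissue of both times was processed together, so a difference in processing cannot be told apart either. Of the 23 tests on Drd1, Drd2, Drd3 and Drd5, 6 were called by edgeR, and each had the lower level at 24 h. The background was high, at 37.2% of genes in the BLA, 41.6% in the CPu, 31.8% in the PFC, 22.9% in the NAc, 18.9% in the VTA and 12.4% in the vHipp, so a share of 6 in 23 is near the background. Calls fell on the BLA and PFC for Drd1 and Drd2, on the PFC and CPu for Drd3, and on no receptor in the NAc, vHipp or VTA.

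In the BLA Drd1 was 29.1 ± 12.9 CPM at 24 h (n = 13, lowest 13.8, median 26.0, highest 63.5) and 63.5 ± 30.7 at 30 d (n = 25, lowest 20.6, median 57.8, highest 124). The log2 fold change was -1.12 (SE 0.26, edgeR adjusted p = 0.00107). Drd2 in the BLA was 11.5 ± 10.2 CPM at 24 h (lowest 2.32, median 9.83, highest 37.0) and 40.1 ± 26.9 at 30 d (lowest 5.44, median 36.1, highest 112), a change of -1.78 (SE 0.45, adjusted p = 0.00231). For both genes the ranges overlapped, with the lowest library at 24 h and the highest at 30 d. The same direction was called between the saline groups S24 and SS alone, -1.20 for Drd1 (edgeR adjusted p = 0.0312) and -1.90 for Drd2 (0.0447), beside 16.7% of all genes in the BLA; limma gave adjusted p of 0.0531 and 0.0523, and edgeR without a filter 0.0618 and 0.0851, so these last calls do not hold across tools.

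In the PFC Drd1 was 24.4 ± 6.02 CPM at 24 h and 33.1 ± 14.3 at 30 d (-0.48, SE 0.16, edgeR adjusted p = 0.0162; -0.26 and 0.0260 without the libraries that stood apart). Drd2 was 3.83 ± 3.97 CPM (median 2.48) and 10.2 ± 11.1 (median 5.61), a change of -1.55 (SE 0.45, adjusted p = 0.00781 by edgeR and 0.0541 by limma; -0.94 and 0.0274 by edgeR without the libraries that stood apart). Drd3 was 0.0556 and 0.212 CPM, from 20 reads in 15 libraries and 131 reads in 26 (-1.90, SE 0.57, edgeR adjusted p = 0.00901). Without the 6 libraries that stood apart Drd3 no longer passed the filter on low counts in the PFC, at a mean of 0.0977 CPM, so this call could not be made there. In the CPu Drd3 was 1.54 ± 0.752 CPM at 24 h and 2.25 ± 1.18 at 30 d (-0.53, SE 0.20, edgeR adjusted p = 0.0335), which was lost without the libraries that stood apart (-0.45, 0.0696), without the Gm20594 libraries (0.0563) and without the filter (0.0673). Another 3 differences had an unadjusted p under 0.05 without being called: Drd2 in the VTA (-0.32, edgeR adjusted p = 0.119), Drd5 in the BLA (-0.47, 0.0921) and Drd5 in the PFC (0.23, 0.101).

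Drd4 moved the other way, as far as so few reads show. Without a filter it was called higher at 24 h in the CPu (0.222 against 0.0741 CPM, 83 reads in 16 libraries against 45 in 26; 1.55 log2, SE 0.28, edgeR adjusted p = 1.43e-05). It was also called in the NAc (0.169 against 0.0573 CPM; 1.496, SE 0.40, adjusted p = 0.00751) and the PFC (0.251 against 0.0893; 1.55, SE 0.35, adjusted p = 0.000758), and not in the vHipp (adjusted p = 0.135), VTA (0.278) or BLA (0.935). The background of that fit was 22.5% of genes in the CPu, 12.2% in the NAc, 16.3% in the PFC, 5.58% in the vHipp, 8.93% in the VTA and 19.8% in the BLA. In the CPu 4 of 26 libraries at 30 d had no read of Drd4 and none at 24 h had 0.

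The difference between times was not equal over regions for Drd1 (limma F test, adjusted p = 6.45e-05) and Drd2 (9.80e-06), beside 18.1% of genes called, and no such call was made for Drd3 or Drd5 (0.169 and 0.132). In the CPu Drd1 differed by -0.04 (95% interval -0.11 to 0.03) and Drd2 by -0.05 (-0.15 to 0.04) between times, against -1.12 and -1.78 in the BLA. Markers of striatal projection neurons moved with the receptors. In the BLA 7 of 7 fell at 24 h (median log2 fold change -1.51), and their sum ran from 214.3 to 875 CPM at 24 h and from 273 to 2932 at 30 d. In the PFC 5 of 7 striatal markers fell (median -0.76), with sums of 196 to 673 and 221 to 1672 CPM, and each of the 7 genes was detected in both regions, the lowest mean being 9.30 CPM for Adora2a in the PFC. In the NAc, vHipp and VTA 0 of 7 were called, and in the CPu 1 rose. The medians over all genes lay within 0.01 of 0 in each region. Other marker lists moved in the same regions and in others. Of all genes, 37.2% were called in the BLA, 31.8% in the PFC and 41.6% in the CPu. The share was 22.9% in the NAc, 18.9% in the VTA and 12.4% in the vHipp. Cholinergic neuron markers fell at 24 h, 3 of 3 in the BLA (median -1.99) and 2 of 3 in the PFC (median -0.94). D2 projection neuron markers fell, 3 of 4 in the BLA and 4 of 4 in the PFC. D1 projection neuron markers were mixed. Of 6, 2 fell and 1 rose in the BLA (median -0.36), 2 fell in the PFC (median -0.12), and 2 rose and 1 fell in the CPu. Of 7 dopamine neuron markers tested, 4 fell and 1 rose in the BLA, 3 fell in the PFC, 1 rose in the CPu and 1 fell in the NAc. In the VTA 3 of 11 fell (median -0.27), with sums averaging 4377 CPM at 24 h and 5392 at 30 d. In the vHipp 3 of 8 rose and 1 fell (median 0.74), and the highest library at 24 h had a sum of 674 CPM. The sum of all 11 listed in the PFC was 40.2 to 60.02 CPM at 24 h and 72.7 to 100.8 at 30 d, without overlap. Most of that sum (mean 73.3 CPM over both times) was Nr4a2, at 41.2 CPM, while Th had 3.92 and Slc6a3 0.266. Astrocyte and dentate granule cell markers each rose in the BLA, 3 of 4. Blood markers were higher at 24 h, 5 of 5 in the CPu, NAc, PFC and VTA, 3 of 5 in the vHipp and 1 of 5 in the BLA. The part of these markers in the receptor differences was not tested.

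Within a region and with condition means removed, receptor levels followed the striatal marker score (mean log2 level of the 7 genes) closely at several sites. Of 23 relations tested with 100000 permutations, two-sided, 15 had a Benjamini-Hochberg adjusted p under 0.05 by Pearson's r and 17 by Spearman's rho; a p of 1e-05 is the smallest these permutations can give. In the BLA r was 0.96 for Drd1 (rho 0.96, permutation p = 1e-05, adjusted 2.3e-05; 0.96 without the 2 libraries farthest from the median score) and 0.97 for Drd2 (rho 0.97, p = 1e-05, adjusted 2.3e-05; 0.97). Drd5 in the BLA had an r of 0.84 (rho 0.86, permutation p = 1e-05, adjusted 2.3e-05; 0.83). In the PFC r was 0.93 for Drd1 (rho 0.83, permutation p = 1e-05, adjusted 2.3e-05; 0.89) and 0.97 for Drd2 (rho 0.93, p = 1e-05, adjusted 2.3e-05; 0.96). Within each time, r for Drd2 was 0.99 at 24 h (n = 13) and 0.98 at 30 d (n = 25) in the BLA, and 0.95 and 0.97 in the PFC. For Drd1 it was 0.88 and 0.98 in the BLA and 0.86 and 0.94 in the PFC, and for Drd5 in the BLA 0.86 and 0.85. In both regions, then, libraries with more striatal marker RNA had more Drd1 and Drd2.

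In the NAc, a striatal region, r was 0.94 for Drd1 (rho 0.89, permutation p = 1e-05, adjusted 2.3e-05; 0.89 without 2) and 0.91 for Drd2 (rho 0.90, p = 1e-05, adjusted 2.3e-05; 0.88). Drd3 and Drd5 did not follow the score there (r 0.05 and -0.05, permutation p = 0.819 and 0.826). In the CPu r was 0.93 for Drd2 (rho 0.89, permutation p = 1e-05, adjusted 2.3e-05; 0.85) and 0.77 for Drd1 (rho 0.57, p = 3e-05, adjusted 5.75e-05; 0.50). Drd3 ran against the score (r -0.64, rho -0.44, permutation p = 0.00106, adjusted 0.00163), and at -0.29 without the 2 farthest libraries this relation largely rests on them. Drd5 ran against it in the PFC (r -0.54, rho -0.44, permutation p = 0.00097, adjusted 0.00159; -0.42) and the vHipp (r -0.57, rho -0.57, p = 0.00028, adjusted 0.000495; -0.49), while Drd1 in the vHipp ran with it (r 0.74, rho 0.75, p = 1e-05, adjusted 2.3e-05; 0.77). In the VTA Drd1 had an r of 0.88 (permutation p = 0.0628, adjusted 0.0886) and a rho of 0.55 that passed the threshold (p = 0.00672, adjusted 0.00966), and r fell to 0.0044 without the 2 farthest libraries.

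The dopamine neuron score, the mean log2 level of 11 genes that include Th and Slc6a3, was the measure followed by Drd2 in the VTA. Here r was 0.97 (rho 0.98, permutation p = 1e-05, adjusted 2.3e-05; 0.97 without the 2 farthest), and 0.97 both at 24 h (n = 12) and at 30 d (n = 19). Drd5 in the VTA ran the opposite way (r -0.73, rho -0.72, permutation p = 2e-05, adjusted 4.18e-05; -0.68), and Drd1 followed neither direction (r 0.17, p = 0.328). Drd2 between 44.1 and 149 CPM thus tracked how much dopamine neuron RNA a VTA library held.

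**Figure D5:**
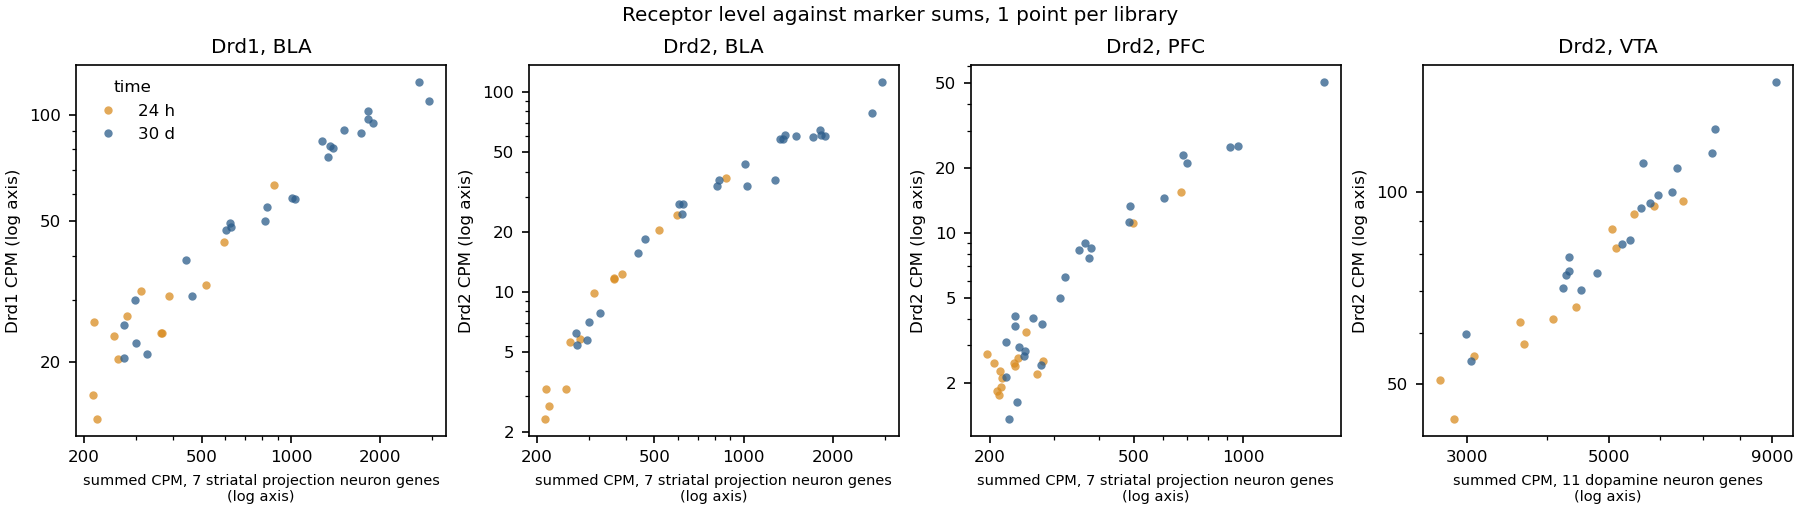
Receptor level (CPM) against the summed CPM of marker genes, both on log axes, 1 point per library: Drd1 and Drd2 in the BLA and Drd2 in the PFC against 7 striatal projection neuron genes, and Drd2 in the VTA against 11 dopamine neuron genes. Points fall near a line in each panel, and 24 h libraries (orange) lie toward its lower end in BLA and PFC.

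Downstream of the receptors, 3 lists were read in the same fits: 16 G protein subunits and their regulators, 22 effectors of the cyclic AMP and potassium channel pathways, and 16 kinases, arrestins and receptor partners. Of 1944 tests over 6 regions and 6 contrasts, edgeR called 0, with 99 at an unadjusted p under 0.05 (limma 0 and 95, DESeq2 0 and 100, with 24 tests left without an adjusted p). List medians ran from -0.06 to 0.07 for the G proteins, -0.08 to 0.05 for the effectors and -0.19 to 0.21 for the partners, beside -0.01 to 0.01 over all genes. Both ends of the partners' range came from the vHipp, in CS against SS and the interaction. For CS against SS there, 8 of 16 partners, 6 of 22 effectors and 5 of 16 G proteins had an unadjusted edgeR p under 0.05. The genes with most RNA per length in the CPu were Gng7 (499 CPM per kilobase), the gamma subunit of the striatal stimulatory G protein, Rgs4 (298) and Gnb1 (132) among the G proteins and regulators. Among effectors they were Ppp1r1b (651), which encodes DARPP-32, the phosphodiesterase gene Pde1b (385) and the adenylyl cyclase gene Adcy5 (288), and among partners Ppp1r9b (241), which encodes spinophilin, and Gprasp1 (81.4). All lie well above the 115.5 CPM per kilobase of Drd1 but for Gprasp1, with Gnb1 close to it. The 1 gene of any list called in a planned contrast was the marker Slc6a3, the dopamine transporter gene, in the NAc for SC against SS (4.80 log2, SE 0.89, edgeR adjusted p = 0.0384). In 1 of the 5 SC libraries there, the dopamine neuron markers summed to 249.6 CPM, against 51.2 to 54.9 CPM in the other 4 and 48.6 to 65.01 in SS.

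The genes whose level was most like each receptor over the 230 libraries were found by Pearson's r of log2(CPM + 0.5) among 14690 genes, as a description, since libraries share regions and mice. For Drd1 they included Cpne5 (0.98), Meis2 (0.98), D430036J16Rik (0.97) and Sh2d5 (0.97). For Drd2 they were Ankk1 (0.96), Scn4b, Pbx3, Rasgrp2 and Klhl13 (0.94). Ankk1 is also the neighbour of Drd2 on chromosome 9 (49415194 to 49427021, minus strand), and its annotated end lies 7016 bases beyond that of Drd2. For Drd3 they were Slco5a1 (0.93), Sox1, Gpr149, Upb1 and Adra2b (0.89), and for Drd5 Kit (0.83), Tnfaip3, Hs3st4, Epha4 and Stim2 (0.78). Drd4 had no close match (Rasgef1b 0.50, Prkab1, Abtb1, AB041806 and Tcf19 0.46), with most libraries at a few reads.

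Within the region where each receptor was highest, with condition means removed, other genes came first. For Drd1 in the CPu (n = 42) they included Atp2b1 (0.83), Cyld (0.83), Kcna4 (0.82) and Socs5 (0.82), and Drd2 itself correlated with Drd1 at 0.69. For Drd2 in the CPu they were Rasd2 (0.92), a gene of the striatal marker list, Eml1, Add1, Hipk4 and Slc8a3 (0.88), and Drd3 ran against Drd2 there at -0.55. For Drd3 in the NAc (n = 39) they were Tubgcp4 (0.89), Rims2, Nr2c2, Dennd4c and Mrs2 (0.87), with Drd1 and Drd2 at 0.03 and 0.08. For Drd5 in the vHipp (n = 39) they were Arpc5 (0.85), 8030453O22Rik, Atp2b1, Neurog2 and Exoc6b (0.81), with Drd1 at -0.52 and Drd2 at -0.45. For Drd4 in the PFC (n = 41) they were Isoc2b (0.59), 3110053B16Rik, Retsat, Itpripl1 and Mettl13 (0.51). No receptor gene was among the 5 nearest of another, over all libraries or within a region.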

How the data were processed

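RNA was measured in 230 libraries, 1 per mouse and region. The labels' protocols name Trizol, an RNeasy micro kit, DNase and depletion of ribosomal RNA, and libraries were made with a ScriptSeq Complete Gold kit, while the molecule field reads polyA RNA. The values deposited by the authors are whole-number counts of reads per Ensembl gene. The submitters' processing notes name mm10 as the build, and HTSeq and limma as tools. The aligner, annotation release and strand setting are not given in the sources used here.

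CPM, levels and fits were computed from the deposited counts with edgeR 4.0.16 and limma 3.58.1 in R 4.3.3, with Python 3.11.15 and scipy 1.17.1 for permutations. Genes were kept by filterByExpr (minimum count 10, minimum total 15) and scaled by TMM. Regions were compared with limma on voom weights over 36 groups, each region averaged over 6 conditions. The title number, taken as the mouse, was a block there (consensus correlation 0.0398); it marks the same animal in several regions. Conditions were compared within a region by edgeR's robust quasi-likelihood F test, without a block since no mouse is in 2 conditions. P-values were adjusted by Benjamini-Hochberg over all genes of a contrast, threshold 0.05. They set a difference against the spread between libraries. DESeq2 1.42.0, limma voom within a region, other scalings, no filter, and fits without single or doubtful libraries were alternatives. Scripts were tested on simulated data. Positions are GENCODE M21 on mm10.

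The 5 receptors and the gene lists were chosen with earlier results of these data known. The contrast of 24 h against 30 d, S24 against SS and the unfiltered fit for Drd4 were added after values were seen. By rule, condition results with an unadjusted p under 0.05 are named, and the others given as ranges; for each receptor the 5 genes most alike in level are named, among those with a mean of 1 CPM or more, except that some of those for Drd1 are not reported here. Counting error limits Drd4 in every region and Drd3 in the PFC and vHipp. A count of 0 there allows an expected count of up to 3 reads at 95% confidence.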

Additional observations from a re-analysis of the deposited data

Results flagged for a closer look

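In 16 of 117 groups of 4 to 10 libraries, the highest or lowest library stood off from the others by Dixon's test at the 95% level. Normally distributed values do so by chance in about 1 in 20 groups, and whether these levels are so distributed was not tested. Of the 16, 10 were libraries that also stood apart in cell type markers. For Drd1 these were the highest libraries of C24 in the BLA (63.5 CPM, the next at 31.8), of SS (53.6, next 36.1), CS (86.2, next 31.8) and CC (51.4, next 29.5) in the PFC, and of SC in the VTA (37.8, next 4.04). For Drd2 they were the same C24 library of the BLA (37.0 CPM, next 12.3), the highest of CS (50.5, next 11.3) and CC (25.1, next 9.01) in the PFC and of S24 in the vHipp (9.13, next 2.06), and the lowest of CS in the CPu (145.3, next 234). That CPu library also held the highest Drd3 of its group (7.31 CPM, next 3.31). The other Drd3 values were the highest of C24 in the CPu (3.38, next 1.74) and the lowest of SS in the NAc (4.99, next 8.72). For Drd5 they were the highest of CS in the NAc (2.80 CPM, next 1.96), of SS in the vHipp (10.4, next 5.41) and of S24 in the VTA (2.64, next 1.21).

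The difference between 24 h and 30 d was not the same in all regions for Drd1 (limma F test, adjusted p = 6.45e-05) and for Drd2 (adjusted p = 9.80e-06), with edgeR log2 fold changes from -1.12 in the BLA to 0.40 in the vHipp for Drd1 and from -1.78 in the BLA to 0.34 in the vHipp for Drd2.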

How the results depend on the processing

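Of 379 recomputed values, 363 kept their direction and side of the threshold, 11 lost the call, 2 gained it and 3 changed sign. The 57 calls between regions were 57 with no replicate block (the mouse), 57 with DESeq2 size factors, 62 without a filter (which adds the 5 of Drd4), 59 without the libraries that stood apart and 52 in SS libraries alone; the contrasts over 6 regions also gave 0 calls without the block. The 0 calls in planned contrasts stayed 0 under every tool, scaling and filter run and in each fit without 1 library of a group of 5 or fewer (0 to 0). The 6 calls of 24 h against 30 d ran from 4 (without the libraries that stood apart, where Drd3 of the PFC was filtered out) to 8 (no filter), and were 6 in each fit without 1 library. The 15 relations with marker scores stayed 15 without TMM factors. Drd5 in the PFC against the CPu changed sign in SS libraries alone (-0.025). Drd1 in the VTA did so without the Gm20594 libraries, for SC against SS (-0.37) and the interaction (0.14). None of these values was called, and the fit without Gm20594 libraries dropped 3 of the 5 SC libraries of the VTA. In SS libraries alone Drd5 in the NAc against the BLA lost its call (0.44, adjusted p = 0.313). Leaving out 1 library moved SC against SS for Drd1 in the VTA between 0.29 and 2.63. Few reads limit Drd4 in every region and Drd3 in the PFC and vHipp.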
